A study of Mus musculus with 4 samples.

Results

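The transcripts described here are those of the NF-kB transcription factors and of the IkB and A20 proteins that regulate them: the 5 subunit genes Nfkb1, Nfkb2, Rel, Rela and Relb, the 4 IkB genes Nfkbia, Nfkbib, Nfkbie and Nfkbiz, and Tnfaip3, which encodes A20. They were chosen by name, and every array probe annotated to one of them was used, which gave 20 probes for these 10 genes among 25107 named genes. Macrophages had been grown from femoral bone marrow of male C57BL/6J mice, either wild type (WT) or Batf2-/-, in M-CSF at 3 ng/ml and harvested on day 5. Cells of each genotype were untreated or had received R848 (resiquimod), a synthetic agonist of the RNA-sensing receptor TLR7, at 100 ng/ml for 8 h. The untreated arrays are labelled 0 h, and no array is labelled 8 h without R848. An effect of the elapsed time thus cannot be told apart from that of R848. Each of the 4 groups is 1 Agilent array with 1 colour, so no difference has a replicate check, and the labels state neither how many mice stand behind a culture nor their age.

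In resting cells, dimers of NF-kB subunits are held in the cytoplasm by IkB proteins. A signal from a Toll-like receptor activates the IKK kinases, the IkB protein is marked for degradation, and the freed dimer enters the nucleus and binds DNA. NF-kB then drives transcription of several of its own inhibitors, Nfkbia and Tnfaip3 among them, which is the classical negative feedback of the pathway in macrophages.

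Values are processed signals, an intensity on a linear scale, and differences are in log2 after each array was divided by its 75th percentile (278, 265, 262 and 252 for WT untreated, WT with R848, knockout untreated and knockout with R848). A gene is called higher or lower, and said to rise or fall, at a difference of at least 2-fold, and a gene with several probes is taken at its brightest probe, the one with the highest mean log2 signal over the 4 arrays. The error given with a difference combines Feature Extraction's own error estimates for the spots compared. It covers measurement on the array and leaves out variation between cultures. For most member spots the estimate lay close to its lowest value, 10.0% of the signal, so the errors hardly differ between probes. All 4 arrays lay on 1 slide. The 10 macrophage markers were well above background on all 4 arrays, with a summed signal between 180212 and 205967. Markers of basophils and mast cells differed between the genotypes, as given beside the genotype comparison. The targeted gene Batf2 had signals of 34.1, 94.8, 26.7 and 10.8 in the array order above, the last not well above background, and the sources used here do not place its probe relative to the deletion.

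The promoters of the members were read for NF-kB motifs because most of these transcripts moved together with R848. RefSeq's promoter table (assembly GRCm38.p6, 300 bases around each annotated start) holds windows for 7 of the 10 members, namely Nfkb2, Rel, Rela, Nfkbia, Nfkbib, Nfkbie and Tnfaip3. Below are the 250 bases before the start for 5 members that hold the NF-kB consensus and for Nfkbib, which holds no match, each written 5′ to 3′ on the strand of the gene. Capitals mark bases matching the consensus on either strand.
Nfkbia (chr12:55492648-55492897, minus strand): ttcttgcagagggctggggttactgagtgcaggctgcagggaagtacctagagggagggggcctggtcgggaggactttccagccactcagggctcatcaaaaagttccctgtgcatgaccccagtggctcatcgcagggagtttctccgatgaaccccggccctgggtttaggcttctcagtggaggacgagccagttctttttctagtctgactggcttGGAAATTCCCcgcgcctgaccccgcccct
Nfkbie (chr17:45555450-45555699, plus strand): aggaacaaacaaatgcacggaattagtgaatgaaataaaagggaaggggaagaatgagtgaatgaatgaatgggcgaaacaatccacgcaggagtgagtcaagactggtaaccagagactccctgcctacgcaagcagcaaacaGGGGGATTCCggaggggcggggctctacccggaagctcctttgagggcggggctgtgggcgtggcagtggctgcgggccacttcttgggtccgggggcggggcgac
Tnfaip3, start 1 (chr10:19015411-19015660, minus strand): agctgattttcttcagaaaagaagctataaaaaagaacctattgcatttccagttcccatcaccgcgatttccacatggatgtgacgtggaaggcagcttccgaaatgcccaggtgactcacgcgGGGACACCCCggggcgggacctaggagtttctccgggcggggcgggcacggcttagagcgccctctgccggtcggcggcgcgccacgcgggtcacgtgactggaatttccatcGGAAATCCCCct
Nfkb2, start 1 (chr19:46304487-46304736, plus strand): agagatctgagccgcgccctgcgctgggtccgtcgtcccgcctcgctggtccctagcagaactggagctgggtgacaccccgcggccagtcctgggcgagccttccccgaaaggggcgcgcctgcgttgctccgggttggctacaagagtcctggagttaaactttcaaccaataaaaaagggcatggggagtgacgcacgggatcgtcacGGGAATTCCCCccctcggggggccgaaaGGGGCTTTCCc
Rel (chr11:23770970-23771219, minus strand): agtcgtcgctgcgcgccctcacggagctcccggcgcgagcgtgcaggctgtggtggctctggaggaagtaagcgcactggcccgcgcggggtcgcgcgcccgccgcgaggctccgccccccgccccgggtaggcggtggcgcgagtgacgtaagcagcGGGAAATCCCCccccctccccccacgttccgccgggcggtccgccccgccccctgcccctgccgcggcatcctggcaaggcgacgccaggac
Nfkbib (chr7:28766645-28766894, minus strand): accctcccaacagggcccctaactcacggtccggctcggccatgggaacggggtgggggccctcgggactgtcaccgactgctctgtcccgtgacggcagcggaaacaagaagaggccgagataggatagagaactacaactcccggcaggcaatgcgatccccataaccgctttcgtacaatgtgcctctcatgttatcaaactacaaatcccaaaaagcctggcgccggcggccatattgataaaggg

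The NF-kB consensus, read on both strands, occurred in 5 of the 7 members and in 1388 of all 27025 genes in the table (5.14%). Counted over windows of the same length, 7 of the members' 10 windows and 4.51% of all 32851 windows held it. A site shared by overlapping Nfkb2 windows was counted in each of them. A looser pattern, GGG and CC with any 5 bases between them, also read on both strands and met by every consensus match, occurred in 6 of 7 members against 53.5% of all genes. In Nfkbia the consensus match began 29 bases before the start, and in Nfkbie 106 bases before it. Tnfaip3 held matches 125 and 12 bases before its first start and none at its second. Nfkb2 held overlapping matches 39 and 38 bases before its first start and a further match 11 bases before it. Its second start had a match 236 bases before it and one 10 bases after it, and the third start one 225 bases before it. Rel held an overlapping pair at 92 and 91 bases. Rela held the looser pattern alone, and in Nfkbib neither was found in this window. These are matches of letters and were not tested as binding sites.

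**Figure D1:**
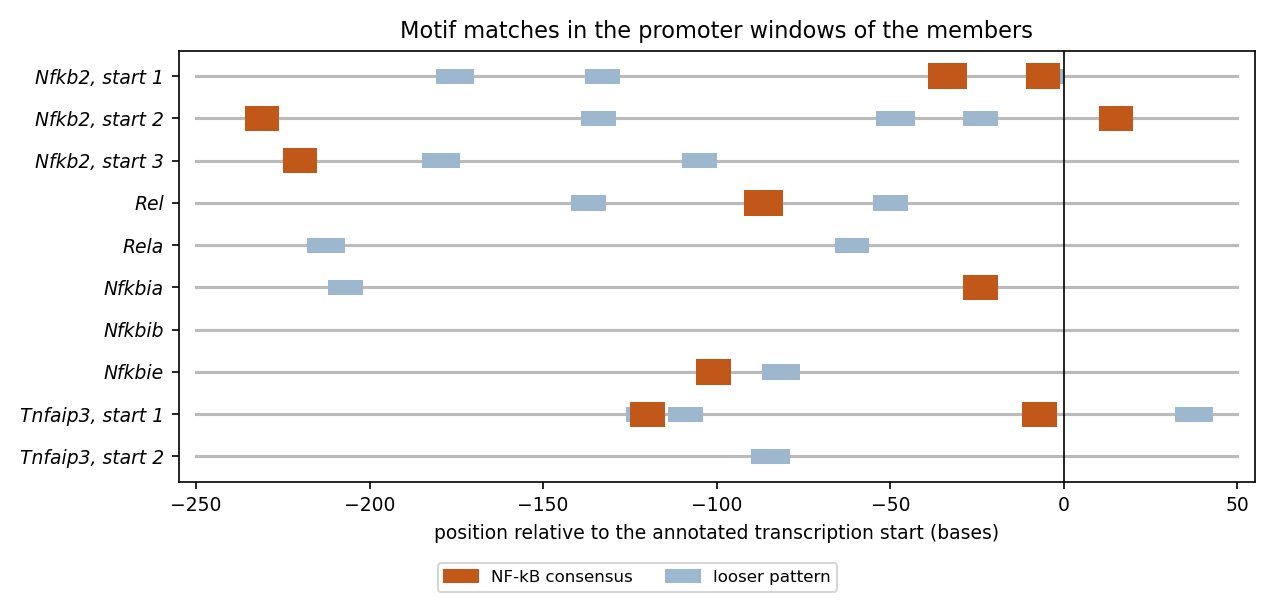
Motif matches in the promoter windows of the 7 members in the RefSeq table; the x axis is the position in bases relative to each annotated start (vertical line), each grey line is 1 window of 300 bases, tall orange blocks are the NF-kB consensus and low blue blocks the looser pattern. The consensus appears in windows of Nfkb2, Rel, Nfkbia, Nfkbie and Tnfaip3, and the Nfkbib window holds no block.

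The first comparison asked how R848 changed these transcripts in WT macrophages. Of the 10 members 8 rose and 0 fell, where 6.19% of all 18763 measured genes rose and 7.01% fell. The 4 IkB genes and Tnfaip3 all rose, with a median of 2.84 over the 5, of which Nfkbiz, a nuclear IkB protein that acts as a coactivator, had the largest value. Of the 5 subunit genes 3 rose, with a median of 1.11, against a median of -0.03 over all genes. In knockout cells 8 of 10 rose and 0 fell, where 6.84% of 19840 genes rose and 6.57% fell. These were the genes risen in WT cells with Rela in place of Rel. The medians there were 3.19 for the IkB genes and Tnfaip3, 1.24 for the subunits and -0.06 for all genes. With the brightest probe chosen by mean linear signal, a setting added after the data were seen, 9 of 10 rose in each genotype, the added gene being Relb. Counted by probe, 16 of 20 rose and 0 fell in WT cells (6.45% and 7.67% of all named probes), and 15 of 20 rose and 0 fell in knockout cells (7.1% and 6.98%). Of all genes called in WT cells 46.9% were higher, which median centring turned into 61.0% and scaling to 10 reference genes into 32.4%. In knockout cells the shares were 51.0%, 63.1% and 31.6%. With those scalings the median of all genes moved to 0.13 and -0.19 in WT cells and to 0.09 and -0.29 in knockout cells, and no called member changed direction.

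**Figure D2:**
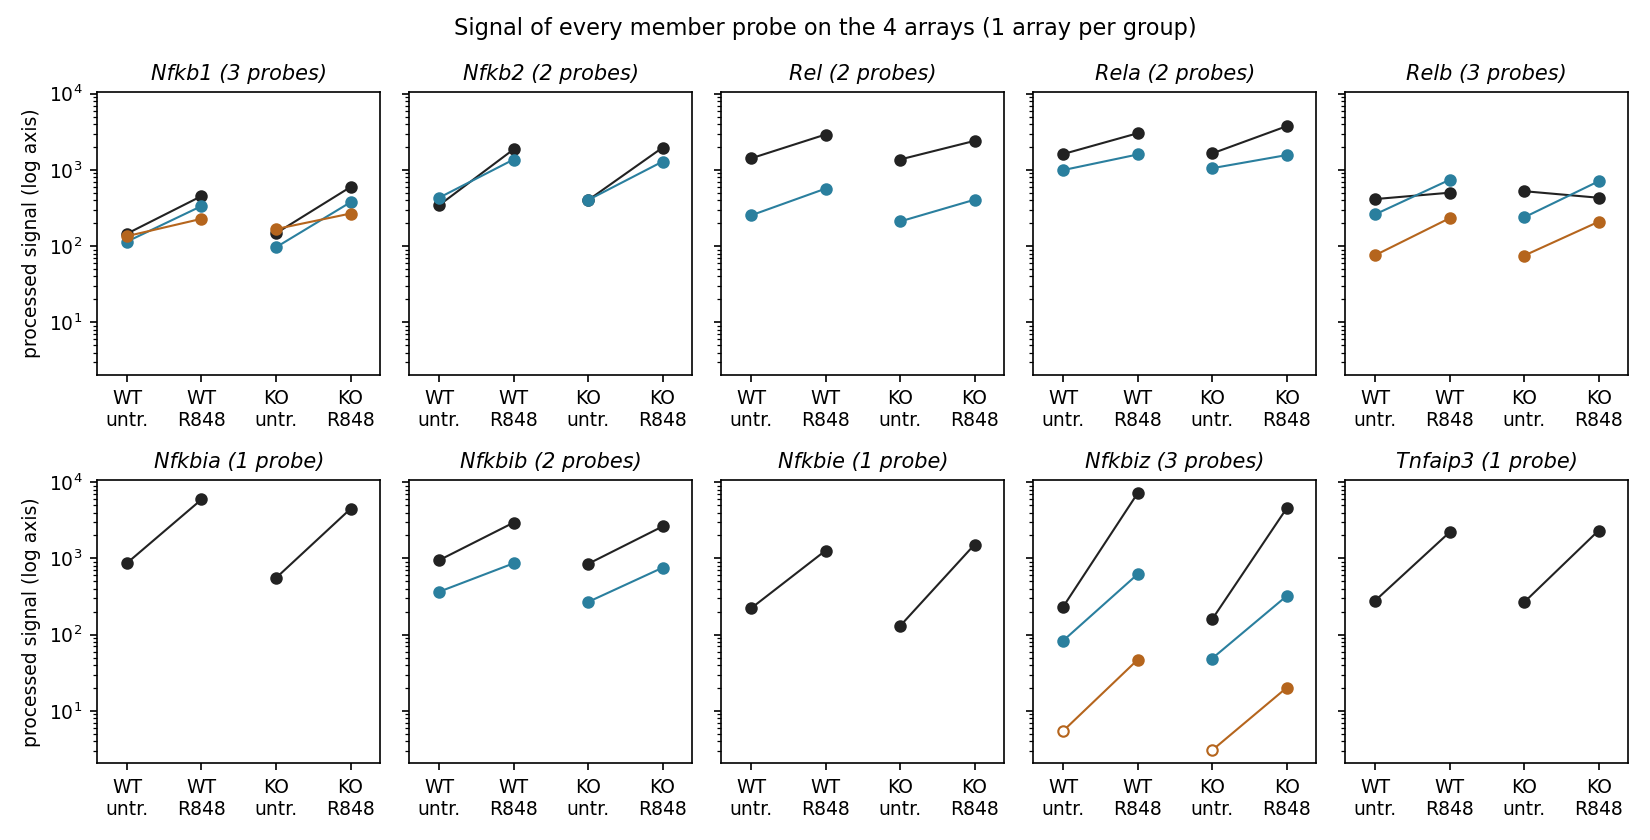
Processed signal (log axis) of each of the 20 member probes on the 4 arrays, 1 panel per gene; a line joins the untreated and R848 arrays of 1 genotype for 1 probe, each point is 1 array, and open circles mark a signal not well above background. Nfkbiz shows the steepest lines in both genotypes, and the brightest Relb probe is the one line that slopes down, in knockout cells.

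Among the subunits, Nfkb1 encodes p105, the precursor that is processed to the p50 subunit. Its brightest probe had signals of 146 in untreated WT cells, 454 in WT cells with R848, 148 in untreated knockout cells and 597 in knockout cells with R848. Both R848 arrays were thus above both untreated arrays, with a rise of 3.26-fold in WT cells (log2 1.71, error 0.21) and 4.20-fold in knockout cells (log2 2.07, error 0.21). A second probe gave 115, 336, 96.7 and 377 in the same order, or log2 responses of 1.62 and 2.02. The third probe gave 135, 228, 168 and 268, with responses of 0.82 and 0.73, below 2-fold in both genotypes. The direction was shared by the 3 Nfkb1 probes, whereas the size was not.

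Nfkb2 encodes p100, the precursor of p52 and the subunit of the non-canonical arm. Its signals were 344 and 1859.7 in WT cells and 400.5 and 1961 in knockout cells, untreated first. It was the most strongly raised subunit, 5.67-fold in WT cells (log2 2.50, error 0.20) and 5.09-fold in knockout cells (log2 2.35). Its second probe, at 431, 1369, 403 and 1287, rose by the same log2 1.73 in both genotypes.

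Rel encodes c-Rel, a subunit abundant in blood cells. Its brightest probe read 1418 and 2916 in WT cells and 1370.0 and 2406 in knockout cells. The response was 2.16-fold in WT cells (log2 1.11, error 0.20) and 1.83-fold in knockout cells (log2 0.87), so the 2 lie on either side of 2-fold although they differ by less than the error of their difference (-0.24, error 0.29). The second Rel probe, at 253, 569, 211 and 407, rose 2.35-fold and 2.01-fold. Under quantile normalization the WT value of the brightest probe was 0.99, and with scaling to reference genes it was 0.94, both below 2-fold.

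Rela encodes p65, the main activating subunit of the canonical pathway. Its signals were 1614 and 3028 in WT cells and 1643 and 3744 in knockout cells, higher with R848 in each genotype. The response was 0.97 in WT cells, just under 2-fold, and 1.24 in knockout cells, each with an error of 0.20. Its second probe (995, 1594, 1053 and 1566) had responses of 0.75 and 0.63. Averaged over both probes, Rela stood at 0.86 and 0.94, below 2-fold in both genotypes.

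Relb encodes the subunit that pairs with p52, and its 3 probes disagreed. The brightest probe by mean log2 signal, annotated to an Ensembl transcript, read 414.5 and 503 in WT cells and 526 and 432 in knockout cells, responses of 0.35 and -0.23. The second probe, annotated to a RefSeq transcript, read 261 and 742 in WT cells and 238.5 and 709.8 in knockout cells, responses of 1.57 and 1.63. This probe was the brighter on both R848 arrays and in mean linear signal, and by that measure Relb counts as risen in both genotypes. The third, also annotated to a RefSeq transcript, read 76.0, 233, 75.1 and 209, responses of 1.68 and 1.53. Both RefSeq probes therefore rose about as much in the 2 genotypes, by 2.89-fold to 3.21-fold, and the brightest probe did not. As a mean over the 3 probes Relb stood at 1.20 in WT cells and 0.98 in knockout cells.

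Among the IkB genes, Nfkbia encodes IkB-alpha, the inhibitor that is degraded and made anew within each round of activation. Its 1 probe read 869 and 5937 in WT cells and 554 and 4472 in knockout cells. It rose 7.16-fold (log2 2.84, error 0.20) and 8.39-fold (log2 3.07), which placed it 146th from the top of 18763 genes in WT cells and 160th of 19840 in knockout cells.

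Nfkbib encodes IkB-beta, a slower-turning relative that binds the same dimers. Its brightest probe read 947 and 2948 in WT cells and 847.5 and 2627 in knockout cells, a rise of 3.26-fold and 3.22-fold. The second probe, at 365, 862, 268 and 755, had responses of 1.31 and 1.55. Nfkbib is thus a member that rose in both genotypes on both probes and whose promoter window held no motif match.

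Nfkbie encodes IkB-epsilon. Its 1 probe read 222 and 1268 in WT cells and 130 and 1521 in knockout cells, the lowest value and the highest value both being knockout arrays. It rose 5.99-fold in WT cells (log2 2.58, error 0.20) and 12.2-fold in knockout cells (log2 3.61, error 0.21).

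Nfkbiz encodes IkB-zeta, a nuclear IkB protein that acts as a coactivator at a subset of NF-kB targets, Il6 among them. Its brightest probe read 231 and 7142 in WT cells and 158 and 4526 in knockout cells, a rise of 32.4-fold (log2 5.02, error 0.20) and 29.7-fold (log2 4.89, error 0.21). At the brightest probes no other member rose as far in either genotype, and Nfkbiz ranked 28th from the top of all genes in WT cells and 38th in knockout cells. A second probe, at 83.1, 620.3, 48.6 and 321, rose 7.82-fold and 6.86-fold. The third probe was dim, with signals of 46.7 and 20.1 on the R848 arrays and not well above background on either untreated array, so its rise is a lower bound of 4.06-fold in WT cells and 1.81-fold in knockout cells. The bound is the signal with R848 over the lowest signal well above background on the untreated array. As a mean over the 3 probes, with the bound included, Nfkbiz stood at 3.34 in WT cells and 2.84 in knockout cells. The knockout mean was below Nfkbie (3.61), Tnfaip3 (3.19) and Nfkbia (3.07), each with 1 probe.

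Tnfaip3 encodes A20, the ubiquitin-editing enzyme that shuts off signalling upstream of IKK. Its 1 probe read 279 and 2206 in WT cells and 266 and 2324 in knockout cells. It rose 8.30-fold (log2 3.05) and 9.10-fold (log2 3.19), each with an error of 0.20.

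**Figure D3:**
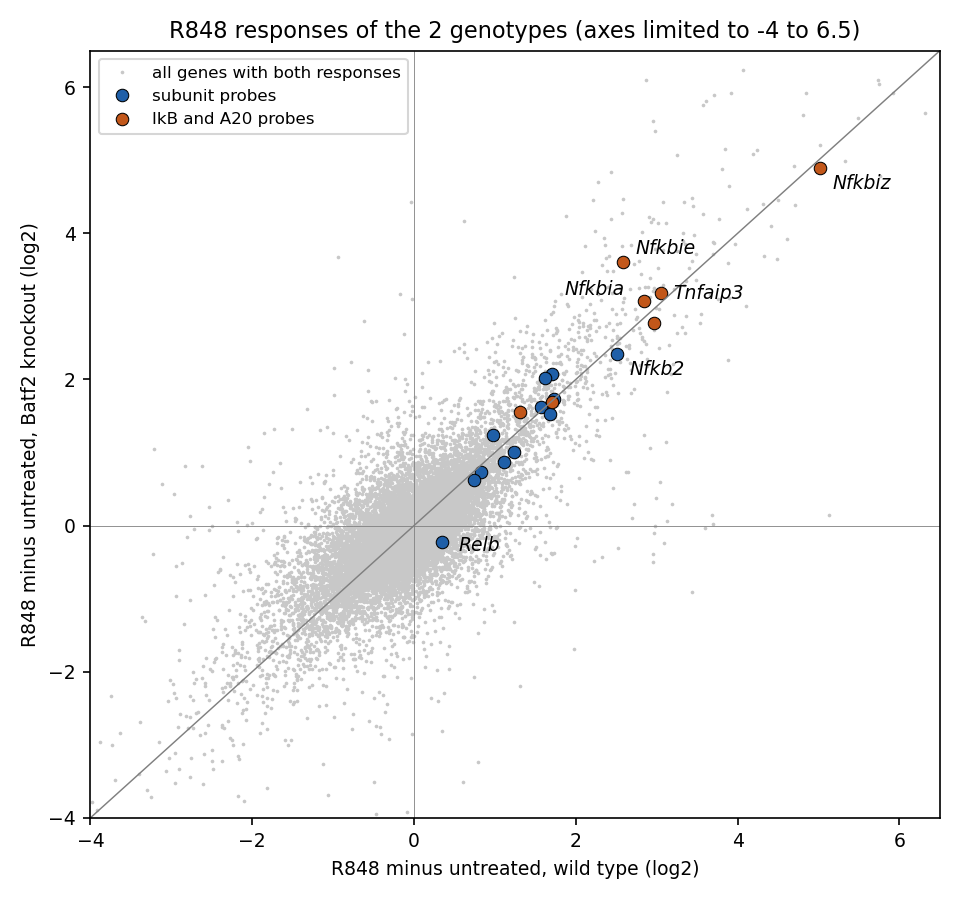
R848 response (log2, R848 minus untreated) in WT cells on the x axis and in Batf2 knockout cells on the y axis; grey points are the 18457 genes with both responses, blue points are subunit probes, orange points are probes of the IkB genes and A20, and the diagonal marks equal responses. Of the 19 member probes shown, Nfkbie lies farthest above the diagonal and the brightest Relb probe farthest below it.

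Set side by side, the responses of the genotypes share no array. Across the 10 members the Pearson r was 0.96 and Spearman's rho 0.94, and across the 19 probes measured on all arrays r was 0.96. Over all 18457 genes r was 0.78. These are descriptions across genes of the same 4 arrays, and the members cover a wide range of responses, which bears on r. The size of the difference between the responses had a median of 0.23 over the 10 members and of 0.24 over all genes, so the members' responses were about as close as those of genes in general. It was below 0.5 for 8 of the 10 members and for 77.1% of all genes. The exceptions were Relb at its brightest probe (-0.58, error 0.29) and Nfkbie.

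Nfkbie was the 1 member of 10 whose response differed by at least 2-fold between genotypes, where 3.14% of 18457 genes were higher in the knockout's response and 2.5% lower. Its difference of responses was 1.02 with an error of 0.29, so a value below 2-fold lies within that error. By probe, 1 of 19 was higher and 0 lower, where 3.73% and 2.85% of named probes were. The Nfkbie value was made up of a lower untreated signal in the knockout (-0.69, error 0.21) and a higher one with R848 (0.34, error 0.20), each short of 2-fold. With scaling to 10 reference genes it was 0.95 and under normexp background correction 0.81, both below 2-fold. Elsewhere among the IkB genes and A20 the difference was 0.23 for Nfkbia, -0.02 for Nfkbib, -0.12 for Nfkbiz and 0.13 for Tnfaip3, each within its error of 0.29. Among all genes called in this comparison 55.7% were higher, and 45.5% with scaling to reference genes.

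The genotypes were then compared directly. In untreated cells 0 of 10 members differed by 2-fold, where 2.8% of 20301 genes were higher in the knockout and 3.18% lower. By probe, 0 of 19 were higher and 0 lower (2.68% and 3.39% of named probes). The subunits had a median of 0.11 and a range from 0.03 to 0.43, the highest being the brightest Relb probe, whose other probes stood at -0.05 and 0.07. The IkB genes were all lower in value in the knockout, Nfkbie at -0.69, Nfkbia at -0.57 (error 0.20), Nfkbiz at -0.46 (error 0.21) and Nfkbib at -0.08, whereas Tnfaip3 stood at 0.02. Under median centring Tnfaip3 was at -0.02 and Rel just below 0, and no other member changed sign there. The second Nfkbiz probe was at -0.69 and the second Nfkbib probe at -0.36. The median over all genes was 0.06, and 94.0% of genes lay at or above Nfkbie and 91.7% at or above Nfkbia.

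With R848, 0 of 10 members differed by 2-fold, where 2.34% of 18768 genes were higher in the knockout and 2.45% lower. Nfkbiz was lowest at -0.59 (error 0.20), a signal of 4526 against 7142, and its other probes stood at -0.88 (error 0.20) and -1.15 (error 0.34). All 3 Nfkbiz probes were thus lower in the knockout, and the dimmest was the 1 member probe of 20 past 2-fold, where 2.58% of 30241 named probes were higher and 2.5% lower. Nfkbia stood at -0.34, Nfkbib at -0.09, Tnfaip3 at 0.15 and Nfkbie at 0.34. Among the subunits Nfkb1 was highest at 0.47 (error 0.20), with its other probes at 0.24 and 0.30, and Rel was lowest at -0.20, with its other probe at -0.41. Rela stood at 0.38, although its second probe was at 0.05, Nfkb2 at 0.15 and Relb at -0.15, with its other probes at 0.01 and -0.08. In the authors' deposited table, which scales each array by its own factor, 60.2% of all called genes were higher in this comparison in place of 48.9%, and the count of members called stayed at 0.

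**Figure D4:**
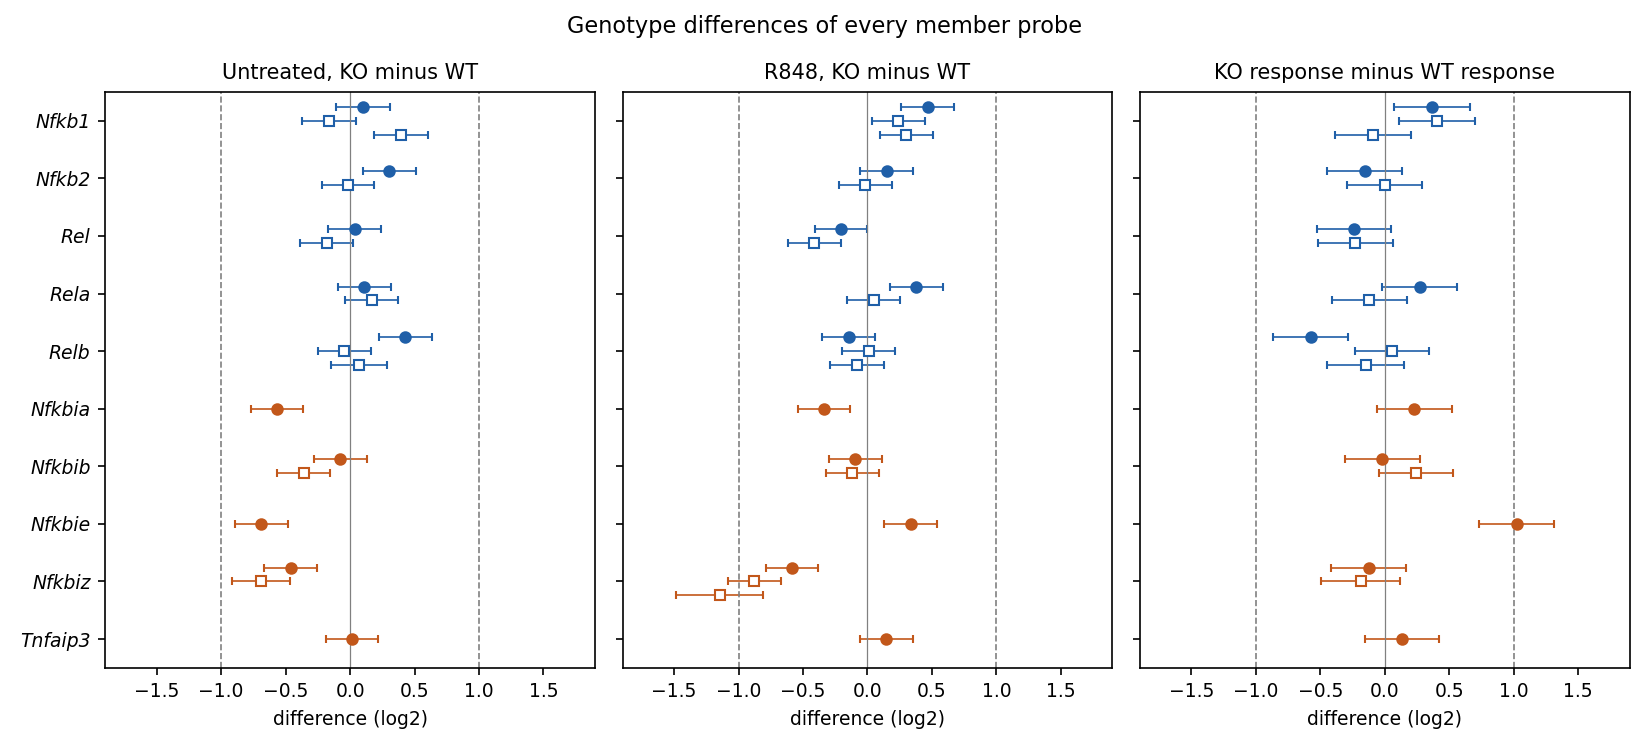
Knockout minus WT difference (log2) of each member probe in untreated cells, with R848, and the knockout's response minus the WT response; filled circles are the brightest probe of a gene, open squares its other probes, blue the subunits and orange the IkB genes and A20, bars are Feature Extraction's error, and dashed lines mark 2-fold. Points past a dashed line are the dimmest Nfkbiz probe with R848 and Nfkbie in the third panel; bounds are not drawn.

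Of the markers of other cells, those of dendritic cells and lymphocytes mostly stayed within 2-fold between genotypes. In untreated cells 0 of 7 dendritic cell markers and 0 of 5 measured lymphocyte markers differed by 2-fold. With R848, 1 of 5 measured dendritic cell markers was lower and 1 of 5 measured lymphocyte markers higher in the knockout. Markers of basophils and mast cells and of granulocytes and their precursors moved with genotype. The summed signal of 9 basophil and mast cell markers was 6353 and 3568 in WT cells and 642 and 669 in knockout cells, untreated first. Of the knockout sums, Hdc alone made up 198 and 460, and it rose with R848 in both genotypes (1.08 and 1.27). The other markers with a value were lower in value with R848 in each genotype. On the knockout R848 array 4 of the 9 were well above background. Between genotypes, 7 of the 9 were lower in untreated knockout cells, and 6 of the 8 measured were lower in the knockout with R848. The summed signal of 10 granulocyte and precursor markers was 167812 and 124397 in WT cells and 84801 and 75528 in knockout cells. Of these markers 6 of 10 were lower in the knockout untreated and 5 of 10 with R848. The part of these cells in the genotype differences of Nfkbie, Nfkbia and Nfkbiz was not tested. In RNA of a whole culture, fewer cells that carry a transcript and less of it per cell cannot be told apart. Rela and Nfkb2 lie on chromosome 19, as does Batf2. Between Rela and Batf2 the gene table lists 44 genes, of which 32 were measured, and 0 of these differed by 2-fold between genotypes in untreated cells and 0 of 31 with R848. Over the 937 genes between Nfkb2 and Batf2, 30 of 416 measured did so in untreated cells (7.21%) and 21 of 381 with R848 (5.51%). Over all genes the shares were 5.98% and 4.79%.

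The rest of the pathway was read from lists of genes by role. Over all genes, 6.19% rose and 7.01% fell in WT cells, and 6.84% rose and 6.57% fell in knockout cells. Of the 3 other IkB genes, Bcl3, a nuclear IkB protein that binds p50 and p52 dimers, rose in both genotypes (2.18 and 1.74), while Nfkbid stood at 0.22 and 0.21 and Nfkbil1 at 0.62 and 0.01. Of 13 genes of receptor-proximal signalling 1 rose in WT cells and 2 in knockout cells, with medians of 0.15 and -0.13. The riser in both was Irak3, which encodes the inhibitory kinase homologue IRAK-M (3.00 and 2.98). Map3k8, the kinase Tpl2 that p105 holds inactive, stood at 0.76 in WT cells and rose in knockout cells (1.18) at its brightest probe, and its other probe rose in both (1.53 and 1.91). The kinase gene Irak4 stood at -0.85 and -0.90, and Tab3 at -0.53 and -0.62.

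Of 7 genes for the IKK complex and related kinases, 2 rose in each genotype: the IKK-related kinase gene Ikbke (2.05 and 2.01) and its partner Tank (1.28 and 1.20). Ikbkg, the regulatory subunit NEMO, stood at 0.57 and 0.48, and its 3 other probes had responses from 0.86 to 1.09 in WT cells and from 0.64 to 0.69 in knockout cells. Of 7 genes of the non-canonical arm 2 rose in each genotype, the adaptor gene Traf2 (1.64 and 1.93) and the receptor gene Cd40. Cd40 read 42.5 and 581 in WT cells and 17.4 and 597 in knockout cells, so it was 1.21 lower on the log2 scale in untreated knockout cells, close with R848 (0.11), and its response was 1.32 larger in the knockout. Cd40 was the 1 gene of 73 in these lists with a difference of responses past 2-fold, where 3.14% of all genes were higher and 2.5% lower. It has 1 measured probe, and its error is not given here. The untreated knockout signal of 17.4 was dim, not far above the lowest signal well above background on that array. Both the untreated difference and the difference of responses of Cd40 depend on that spot. Traf3 stood at 0.88 and 0.69, and Tnfrsf13c at -0.46 and -0.27.

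Of 14 partners and relatives of A20 in ubiquitin editing, 4 rose in each genotype. These were the endoribonuclease gene Zc3h12a (Regnase-1, 2.98 and 3.79), the A20-binding proteins Tnip1 (2.79 and 2.20) and Tnip3 (1.91 and 2.42), and N4bp1 (1.44 and 1.64). The other Tnip3 probe rose by 3.28 and 2.53, so which genotype had the larger Tnip3 response depended on the probe. The medians of this list were 0.15 and 0.34. Of 7 genes of the machinery that degrades IkB proteins 0 rose and 0 fell in either genotype. For a list this short, that count is close to the shares over all genes. The largest WT value was that of Fbxw11, an F-box protein that recognises phosphorylated IkB (0.76 and 0.47), followed by Uba1 (0.70 and 0.78).

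Of 24 known NF-kB target genes 22 were measured, and 15 rose in WT cells (list median 2.60) and 16 in knockout cells (median 2.81). Plau fell in knockout cells (-1.17). Il12b, Cxcl2, Cxcl1 and Il6 had the largest WT responses, between 7.31 and 8.03. With R848 the genotypes differed by 2-fold for Il12b (-1.07) and for the adhesion molecule Vcam1 (-1.71), and in untreated cells for Vcam1 (-2.39), Traf1 (-1.52) and Plau (1.35). Il6 read 2641 in WT cells and 2894 in knockout cells with R848, a difference of 0.21. In the same comparison Nfkbiz stood at -0.59 and Il12b at -1.07. Whether the Nfkbiz value bears on any target gene was not tested.

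**Figure D5:**
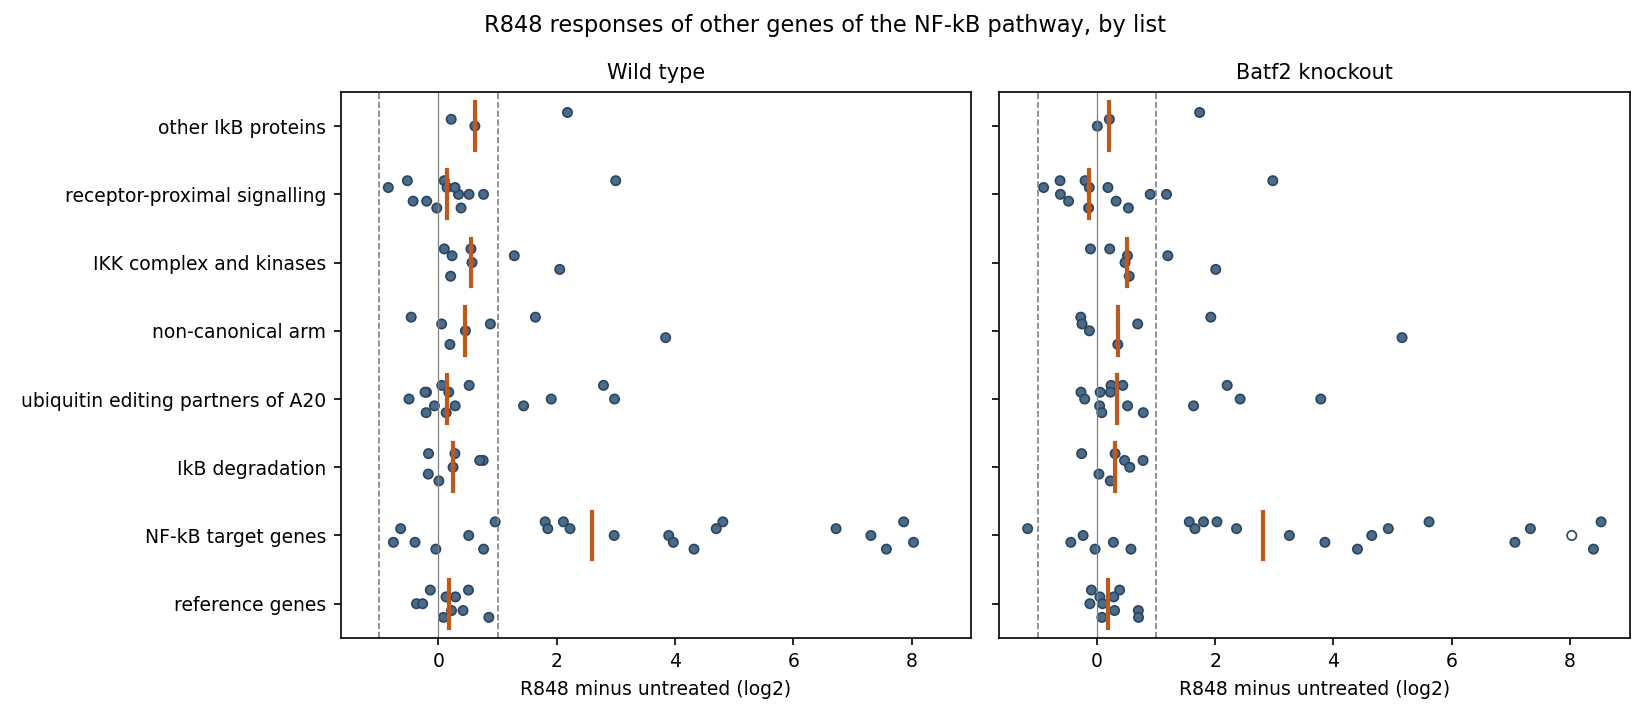
R848 response (log2) of genes in 7 pathway lists and of 10 reference genes, in WT cells (left) and Batf2 knockout cells (right); each point is 1 gene, open points are lower bounds, orange bars are list medians and dashed lines mark 2-fold. The target genes reach 8.03 in WT cells, and the IkB degradation genes and reference genes stay between the dashed lines.

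For each member that rose in both genotypes, the genes with the most similar profile over the 4 arrays were sought among 9795 genes, by the distance between log2 profiles centred on their means. With 4 arrays such a match is a description only. Nfkb1 was closest to Parp12 (distance 0.04) and Dram1, and Nfkb2 to Rab11fip1 and F10. Nfkbia was closest to Irak3 (0.19) and Slc39a4, and Nfkbib to Rhbdf2 (0.07) and Abracl. Nfkbie was closest to the interferon-inducible genes Oasl2 (0.15) and Usp18 (0.17), whose WT responses were 2.41 and 2.72 and knockout responses 3.68 and 3.58. Nfkbiz was closest to the chemokine genes Ccl5 (0.25) and Ccl4 (0.53). Tnfaip3 was closest to Ppfibp2 (0.07) and to the adhesion molecule gene Icam1 (0.08), whose responses were 2.97 and 3.26.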

How the data were processed

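Total RNA was hybridised with 1 colour (Cy3). Per the file headers, the intensity used is Feature Extraction's processed signal, with background and a spatial trend removed; the version was 11.5.1.1, per the submitters' processing notes. The authors also deposited a table of intensity scaled by 1 factor per array (3.72, 3.85, 4.06 and 4.13 in the order WT untreated, WT R848, knockout untreated, knockout R848), with column medians of 705, 675, 720 and 685; how the factors were set is unknown.

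They deposited log2 ratios of single arrays too, not used here. For this report signals were put on the log2 scale and centred on the array's 75th percentile, controls left out. Spots marked non-uniform or as outliers (70 to 115 per array) were left out and 0 were saturated. Of 56605 probes 40458 were named, the member probes through Entrez IDs, for 25107 genes; 20628 genes had a probe well above background on some array. A gene was taken at its brightest such probe by mean log2 signal. All 20 member probes had 1 spot each, and 19 of them were well above background on every array. A dim side was set to the lowest signal well above background on its array, which gives a bound, and a bound that would point the wrong way was dropped. The spread between 10 spots of 1 probe had a median SD of 0.048 to 0.073 on the log2 scale, a technical spread within arrays. Feature Extraction's error of member probes well above background was 10.0% to 19.1% of the signal. The signal around member spots differed from the array by -0.17 to 0.14 on the log2 scale.

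With 1 array per group there was no test. The members and lists were chosen with earlier results of these data known. Pathway genes named are the up to 4 with the largest WT response in each list and those differing by 2-fold between genotypes with R848. Plau, Traf1, Irak2, Rnf31, Traf6, Cd83, the marker Hdc and further probes were named after their values were seen. Promoters are RefSeq's; Nfkb1, Relb and Nfkbiz are named only. Alternatives changed the scaling (median, quantile, 10 reference genes), background (limma 3.58.1 normexp, offset 50, on median signals, since mean signals are no column of the files), values, probe rule, filters, marked spots and threshold (1.5-fold). The contrasts were checked on simulated data.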

Additional observations from a re-analysis of the deposited data

Results flagged for a closer look

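Among the members and the pathway genes named by rule, 3 genes had R848 responses of opposite signs in the 2 genotypes, each with 1 array per group, and the difference was not tested. Opposite signs were common: they were seen for 1 of 10 members, 13 of 73 genes of the pathway lists (17.8%) and 26.2% of all 18457 genes. Some list genes not named by rule were farther apart than these 3. They were Rnf31 (-0.21 in WT cells and 0.79 in knockout cells), Traf6 (0.34 and -0.61) and Cd83 (0.51 and -0.23). The brightest Relb probe stood at 0.35 in WT cells and -0.23 in knockout cells, both short of 2-fold, while the other Relb probes rose in both genotypes. Map3k14, which encodes the kinase NIK of the non-canonical arm, stood at 0.55 and -0.11 at its brightest probe, and its other 2 probes were at -0.31 and -0.37 and at -0.45 and -0.18. Vcam1 stood at -0.40 and 0.28 at its brightest probe and at 0.47 and 1.02 at its other probe, so the direction in WT cells depended on the probe.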

How the results depend on the processing

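The counts of members called, or holding a motif, kept within 1.5 times their value in 52 of 56 recomputed counts. At a threshold of 1.5-fold, 1 member was called between genotypes in untreated cells (Nfkbie, lower in the knockout) and 1 with R848 (Nfkbiz, lower), where 0 were called at 2-fold. For the difference of responses, 0 members were called with scaling to 10 reference genes and 0 under normexp, in place of 1; the cause was not tested. Of 500 member values under alternatives 9 changed sign (of Rel, Relb, Tnfaip3 and Nfkbib), 0 of them among called values. Calls also moved for Rela in WT cells under median centring (1.13), Rel in knockout cells under median centring (1.01), Relb in WT cells as a mean over probes (1.20) and Rela in knockout cells as that mean (0.94). Choosing the brightest probe by mean linear signal, a setting added after the data were seen, moved Relb alone, to 1.57 and 1.63 for the responses, and gave 9 members in place of 8 in each genotype. With the narrower consensus in place of the looser pattern, 5 members in place of 6 held a promoter match. Over all genes, normexp, whose offset shrinks dim differences, called 702 higher and 575 lower in place of 1162 and 1316 for the WT response, and 810 and 547 in place of 1357 and 1304 for the knockout response. It called 111 and 219 in place of 569 and 646 between untreated genotypes, 104 and 148 in place of 440 and 459 with R848, and 140 and 99 in place of 580 and 461 for the difference of responses. Without the filter on dim probes the counts were 1527 and 2261, 1810 and 2278, 1481 and 1179, 1377 and 839, and 1729 and 1761 in the same order. Scaling to reference genes called 979 and 2123 in the knockout response. With dim probes left out entirely, 323 and 498 genes were called between untreated genotypes and 259 and 336 with R848. No paired analysis was possible because each group has 1 array. What limits every value is that number of arrays and, for the third Nfkbiz probe, a signal not well above background in untreated cells.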

Other observations

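Irak2, which encodes a kinase of the complex below the adaptor MyD88, was read very differently by its 3 probes. Its brightest probe had signals between 110155 and 132294 and responses of -0.03 in WT cells and -0.14 in knockout cells, which is the value counted above as within 2-fold. Its other probes had responses of 1.56 and 0.83, and of 1.49 and 1.01. Both were thus higher in value with R848 in both genotypes, although the 0.83 in knockout cells is short of 2-fold. The WT response was the larger by 0.73 and 0.48 on the log2 scale.

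Dim second probes of pathway genes differed from the brightest ones in further cases. The second Bcl3 probe, with signals of 42.7, 16.6, 27.0 and 38.3 on WT untreated, WT R848, knockout untreated and knockout R848, did not show the rise of the brightest probe. The second probe of the endoribonuclease gene Zc3h12a rose by 1.17 and 1.08, less than the brightest. The 3 Irak3 probes were close to each other, with responses between 2.77 and 3.00 in WT cells and between 2.88 and 2.98 in knockout cells.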
